A study of Mus musculus with 6 samples.

Results

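The genes described are 9 genes of the cell cycle and of DNA repair on mouse chromosome 4: Ccne2, Melk, Orc3 and Smc2, which act in cell division, and Nbn, Rad54b, Fancg, Xpa and Rad23b, which act in repair. They were chosen by name from the 53546 gene features counted in each library, and all lie below position 57 Mb of the chromosome, where the coordinates in the files match the mouse build GRCm38. The data are RNA sequencing counts of 6 libraries from C57BL/6 mice, a control group of 3 and a spinal cord injury group of 3. Spinal cord and intervertebral disc are both given as the tissue, while the series text speaks of retina from 21-day-old mice. The labels give neither the way nor the time of injury, and no allele or drug is named for either group. Since no label ties the libraries to different animals, the p-values rest on a spread among libraries that may be technical.

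Dividing cells pass from G1 into S phase under cyclin and kinase control, license their replication origins with the origin recognition complex, and compact their chromosomes with condensin before mitosis. Breaks in both strands are found by the MRN complex and mended by homologous recombination, crosslinks are handled by the Fanconi anaemia proteins, and bulky damage is removed by nucleotide excision repair. Neurons of the adult cord no longer divide and rely on the repair pathways, whereas glia and invading leukocytes can divide after damage.

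Control 3 resembled the injury libraries and controls 1 and 2 did not. Over 10 markers of neurons and glia the summed level was 270 and 104 CPM (the count scaled by the library's total) in controls 1 and 2, 6417 in control 3 and 6540 to 6959 in the injury libraries. Frrs1l, Clvs1 and Necab1 were at 0 in control 1 and Clvs1 in control 2, and Calb1 alone made up 249 CPM of the sum in control 1. By contrast 6 epithelial transport genes summed to 3011 and 1857 CPM in controls 1 and 2, 5.35 in control 3 and 2.51 to 6.19 after injury, with Slc7a13, Aqp3 and Acnat2 at 0 in all 4 of the latter libraries. The sum of 4 leukocyte markers was 207 and 427 CPM in controls 1 and 2, 57.4 in control 3 and 120, 83.6 and 57.0 in injury 1, 2 and 3, and Tfec was at 0 in control 3 and in every injury library. Lyn made up most of this sum, and Pax5 ran against it, at 1.28 and 3.31 CPM in controls 1 and 2, 6.12 in control 3 and 5.27 to 7.96 after injury. Of 5 cartilage and disc markers, 2 could be read, and only from features that overlie some part of the gene. The other marker lists were read by feature name. The features read for Krt19 were at 0 throughout, and those for Acan at 0 in controls 1 and 2 and 2.10 to 11.5 CPM in the others. Their share of bases on the gene is not given, so a 0 does not show the gene to be absent. These markers were chosen with earlier results of these data known, to show how the libraries differ, and are no test of it. The injury libraries were compared with control 3 alone, with controls 1 and 2 alone, and with all 3 controls. In such bulk samples, fewer cells of a type and less RNA per cell cannot be told apart.

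The features of the 9 genes lay wholly on the GENCODE M21 exons of the genes they name, which few others did: 1755 of the 53546 features (3.28%) had at least 90% of their exonic bases there. On chromosome 4, Ccne2 spans 11191351 to 11204779 in 13 merged exons, Rad54b 11558922 to 11615805 in 18, Nbn 15957925 to 15992589 in 16, Melk 44300876 to 44364675 in 19, Smc2 52439243 to 52488260 in 25 and Rad23b 55350043 to 55392237 in 10, all on the plus strand. Orc3 spans 34570796 to 34614944 in 21 merged exons, Fancg 43002343 to 43010506 in 11 and Xpa 46155347 to 46196311 in 9, on the minus strand. Reads on exonic bases shared by more than 1 feature were dropped in counting. Such bases made up 35.9% of Rad54b, shared with Fsbp and Gm11832, 17.4% of Ccne2, shared with Ints8, 4.07% of Xpa, shared with Ncbp1, and none of the other 6 genes. Library totals of 2385703 to 3921627 counts put 3 counts at 0.765 to 1.26 CPM.

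Promoter windows from RefSeq on GRCm38.p6, running from 250 bases before to 50 after the annotated start, were found for 6 of the 9 genes: Melk, Smc2, Fancg, Xpa, Rad23b and Orc3. Several motifs of cell cycle promoters were searched on both strands: the E2F core (TTTGGCGC, TTTCCCGC, TTTGCCGC or TTTCGCGC), the cell cycle homology region (TTTGAA or TTCGAA) and the CCAAT box (CCAAT), and no match of one overlapped a match of another in these windows. The windows of Fancg, Orc3 and Smc2 are shown because they hold an E2F core or a cell cycle homology region, 5′ to 3′ along the gene, with matches in capitals. They lie at chr4:43010252-43010551 (minus strand), chr4:34614893-34615192 (minus strand) and chr4:52438971-52439270 (plus strand).

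Fancg: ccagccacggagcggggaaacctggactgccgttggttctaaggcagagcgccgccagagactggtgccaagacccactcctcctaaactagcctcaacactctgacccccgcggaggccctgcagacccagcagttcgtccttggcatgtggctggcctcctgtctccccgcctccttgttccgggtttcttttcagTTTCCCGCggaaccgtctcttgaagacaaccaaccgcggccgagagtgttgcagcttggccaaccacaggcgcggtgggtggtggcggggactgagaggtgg

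Orc3: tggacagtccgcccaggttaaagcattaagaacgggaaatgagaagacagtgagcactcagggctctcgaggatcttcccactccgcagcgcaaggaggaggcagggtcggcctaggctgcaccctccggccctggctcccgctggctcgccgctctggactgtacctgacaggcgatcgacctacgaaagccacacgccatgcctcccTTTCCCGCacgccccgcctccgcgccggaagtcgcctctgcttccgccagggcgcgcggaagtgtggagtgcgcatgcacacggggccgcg

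Smc2: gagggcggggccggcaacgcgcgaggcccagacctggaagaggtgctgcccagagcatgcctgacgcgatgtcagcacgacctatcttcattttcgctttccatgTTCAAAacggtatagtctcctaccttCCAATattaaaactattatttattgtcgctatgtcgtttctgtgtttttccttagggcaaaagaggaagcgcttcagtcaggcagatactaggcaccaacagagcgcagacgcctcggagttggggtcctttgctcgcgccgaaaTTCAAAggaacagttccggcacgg

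In Fancg the E2F core TTTCCCGC began at base -52 from the RefSeq start, and in Orc3 the same letters began at base -41. The counted feature of Fancg starts farther upstream, at 43010506, so that this match lies within the feature's span. Smc2 held TTCAAA, the cell cycle homology region read on the other strand, at base -145 and again at base 27, with a CCAAT box at base -119. Xpa and Rad23b held only a CCAAT box, at bases -238 and -103, and the Melk window held none of the 3. The E2F core stood in 2 of the 6 windows and in 2.26% of the 32851 promoter windows in the table, the cell cycle homology region in 1 of 6 and 19.2%, and the CCAAT box in 3 of 6 and 37.4%. The windows of Fancg and Orc3 were 63.3% and 66.3% G and C, against a median of 52.7% over all windows. The shares were not matched for base content. A match is a run of letters and not a shown binding site.

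Among the cell cycle genes, Ccne2 encodes cyclin E2, the partner of CDK2 at the entry into S phase. In controls 1, 2 and 3 its level was 17.7, 31.1 and 44.7 CPM, and in injury 1, 2 and 3 it was 40.3, 48.8 and 35.6 CPM. Control 3 lay inside the injury range (41.6 ± 6.69 CPM, SD, n = 3), and controls 1 and 2 lay below it. The 95% Poisson intervals of control 2 (25.8 to 37.1 CPM) and injury 3 (28.5 to 44.1 CPM) overlapped. Melk, a kinase found mostly in dividing cells, had 1, 29 and 2 counts in the controls and 7, 5 and 2 after injury, or 0.257, 7.39 and 0.765 CPM and 2.41, 1.76 and 0.838 CPM. All libraries but control 2 had at most 7 counts, and the 95% Poisson interval of control 2 (4.95 to 10.6 CPM) barely met that of injury 1 (0.969 to 4.96 CPM).

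Orc3, a subunit of the origin recognition complex, stood at 209, 299.9 and 323 CPM in controls 1, 2 and 3 and at 279, 328 and 280.4 CPM in injury 1, 2 and 3. Controls 2 and 3 fell within the injury range and control 1 below it. Smc2, the core ATPase of both condensin complexes, was counted at 16.2, 85.7 and 86.8 CPM in the controls and 77.8, 99.7 and 71.7 CPM after injury. Here too control 1 alone stood apart, while controls 2 and 3 were inside the injury range (83.1 ± 14.8 CPM, SD, n = 3).

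Turning to double-strand break repair, Nbn encodes nibrin, the subunit that ties the MRN complex to damage signalling. Its level was 104, 84.9 and 119 CPM in the controls and 110.5, 136 and 121 CPM after injury, which left control 3 within the injury range and controls 1 and 2 below it. Rad54b, a DNA translocase of homologous recombination, was at 1.54, 20.4 and 5.35 CPM over controls 1, 2 and 3 and at 3.79, 3.86 and 4.61 CPM in injury 1, 2 and 3. The injury libraries had 11 counts each, control 3 had 14 and control 1 had 6, whereas control 2 had 80. Fancg, a member of the Fanconi anaemia core complex, measured 7.70, 34.4 and 24.9 CPM in the controls and 34.4, 29.8 and 23.9 CPM after injury, so that control 1 was low and controls 2 and 3 were level with the injury libraries.

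Of the nucleotide excision repair genes, Xpa encodes the damage-verifying scaffold of the incision complex. It stood at 47.2, 55.3 and 31.7 CPM in controls 1, 2 and 3 and at 29.9, 31.3 and 27.7 CPM in injury 1, 2 and 3, so that all controls were above all injury libraries, control 3 by a margin smaller than its counting interval (25.3 to 39.3 CPM). Rad23b, which partners the damage sensor XPC and also carries ubiquitinated proteins to the proteasome, was at 396, 309 and 911 CPM in the controls and 922, 992 and 1012 CPM after injury. Every control was below every injury library, with control 3 close to injury 1 and controls 1 and 2 far below.

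**Figure D1:**
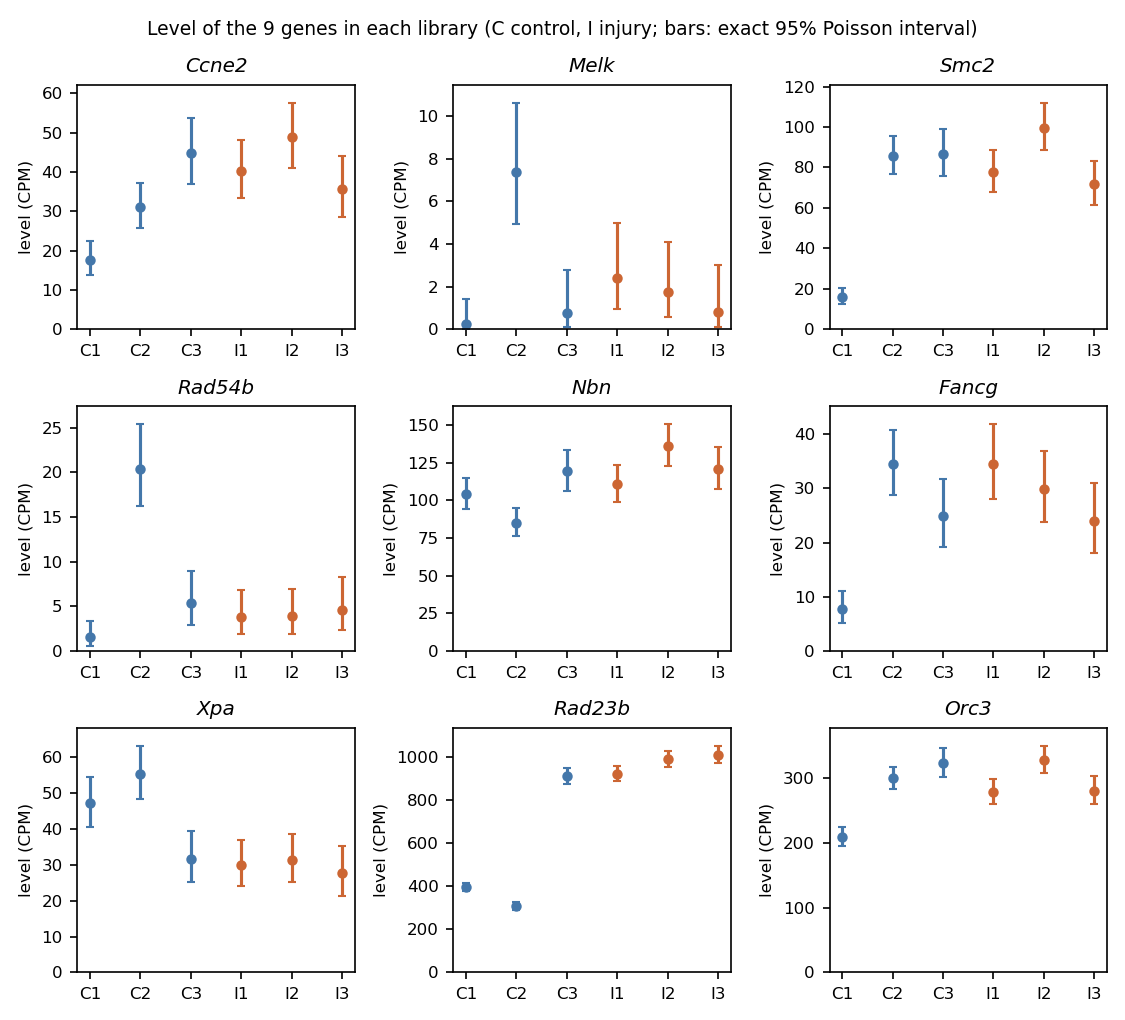
Level of each of the 9 genes in CPM (vertical axis, linear and starting at 0) in controls 1 to 3 (C, blue) and injury 1 to 3 (I, orange), with exact 95% Poisson intervals that cover counting error only. Control 3 sits close to the injury libraries in every panel, Smc2 and Fancg are low in control 1 alone, Melk and Rad54b are high in control 2 alone, and Rad23b is low in controls 1 and 2.

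Per kilobase of exonic length, the scale on which genes can be compared, Rad23b was the most abundant of the 9 in all 6 libraries, with an injury mean of 170.1 ± 8.31 CPM per kilobase (SD, n = 3). Orc3 (48.6) and Nbn (48.4) followed with overlapping ranges over the injury libraries, then Xpa (15.6), Smc2 (15.2) and Ccne2 (11.9), of which Xpa overlapped Smc2 and Smc2 overlapped Ccne2. Fancg (7.74) was below all of these, and Rad54b (0.707) and Melk (0.561) were lowest and overlapped each other. Because reads on shared bases were dropped, this length is too long for Rad54b, Ccne2 and Xpa. Over unshared exonic bases alone their means were 1.10, 14.4 and 16.3 CPM per kilobase, the order was the same, and Rad54b (1.02 to 1.24) no longer overlapped Melk (0.282 to 0.811). The repair genes thus stood at both ends of the order, as Rad23b was first and Rad54b next to last.

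**Figure D2:**
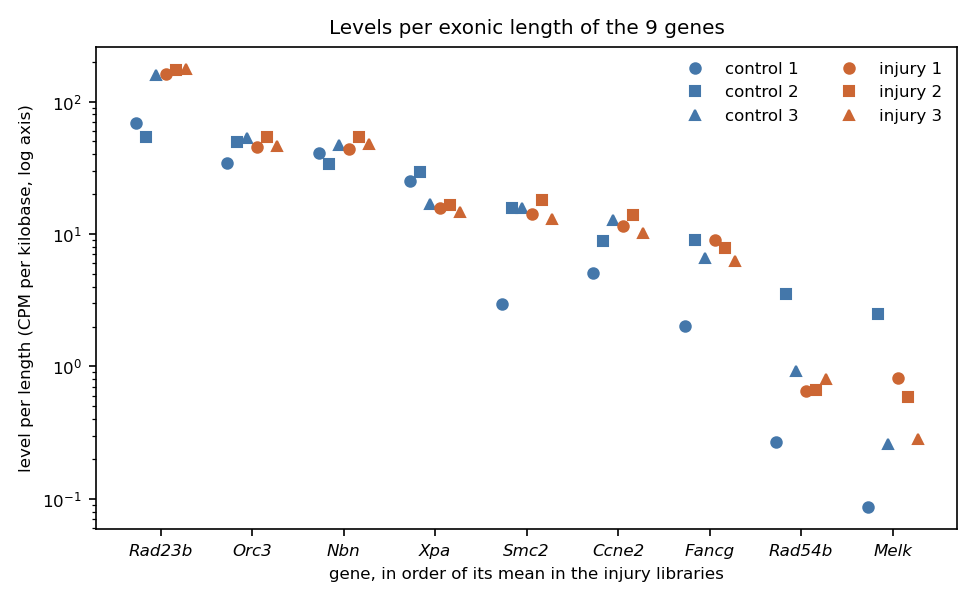
Level per exonic length, shared bases included (CPM per kilobase, log axis), of the 9 genes, ordered by their mean in the injury libraries, with 1 point per library, controls in blue and injury in orange. Rad23b is highest in each library, and Rad54b and Melk are lowest with their points spread widest among the controls.

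Set against control 3 alone, none of the 8 genes with enough counts for a test passed it in the injury libraries. Melk was too low for the filter on low counts. By edgeR's quasi-likelihood test with Benjamini-Hochberg adjustment, 0 of 8 were called at 0.05 and 0 had an unadjusted p under 0.05, where over all 13857 features 1.05% were called higher, 5.72% were called lower and 25.5% had an unadjusted p under 0.05. DESeq2 also called 0 of the 4 members it gave an adjusted p, where it called 17.5% of the 2678 features with one, and 1 of 9, Rad23b, was under 0.05 before adjustment. The lone control was assumed to vary as the injury libraries do. Leaving out each injury library in turn gave 0 calls among the 8 each time.

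The log2 fold change of injury over control 3 was 0.018 for Ccne2 (95% interval -0.43 to 0.47, edgeR adjusted p = 0.968), 0.059 for Smc2 (-0.33 to 0.45, 0.871) and -0.0074 for Orc3 (-0.35 to 0.34, 0.982). Among the repair genes it was 0.16 for Nbn (-0.21 to 0.53, edgeR adjusted p = 0.594), -0.28 for Rad54b (-1.37 to 0.82, 0.774), 0.36 for Fancg (-0.17 to 0.90, 0.385), 0.022 for Xpa (-0.47 to 0.51, 0.964) and 0.22 for Rad23b (-0.12 to 0.56, 0.407). All of these intervals stayed within 1 log2 unit of 0 except that of Rad54b, which had 11 to 14 counts a library. Control 3 lay outside the range of the injury libraries for 3 of the 8, Rad54b and Xpa above it and Rad23b below it, against 67.7% of all features tested. Their median log2 fold change was 0.041, beside -0.028 over all features. Total-count scaling without further adjustment moved the median of all features by -0.12 and turned the sign of Ccne2, Smc2 and Xpa, all with values near 0.

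Melk could be fitted only without the filter. Its log2 fold change against control 3 was then 1.34 (SE 1.06, edgeR adjusted p = 0.596), from 2 counts in control 3 against 7, 5 and 2. The summed leukocyte markers were also lower in control 3 and injury 3 (57.4 and 57.0 CPM) than in injury 1 and 2 (120 and 83.6 CPM), although Pax5 was higher in control 3 and injury 3 (6.12 and 7.96 against 5.51 and 5.27 CPM), and their part in the Melk counts was not tested.

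Against controls 1 and 2 the same injury libraries gave other values. By edgeR's test Ccne2, Rad23b and Orc3 were called higher after injury, Rad23b by 1.90 on the log2 scale. The 3 of 8 (37.5%) called higher are near the 30.2% of the 15320 features tested that were. Of the 8, 0 were called lower, where 36.6% of all features were. Rad23b had a log2 fold change of 1.90 (SE 0.35, edgeR adjusted p = 0.00390), Ccne2 of 1.30 (SE 0.27, adjusted p = 0.00570) and Orc3 of 0.73 (SE 0.23, adjusted p = 0.0274). Ranges of the groups did not overlap for 4 of the 8, with Ccne2, Nbn and Rad23b higher and Xpa lower, against 77.7% of all features. DESeq2 called 5 of 9 higher, adding Smc2 (1.58) and Fancg (1.32), where it called 22.6% of 22591 features higher. The neuronal, glial and epithelial marker sums given above moved with the same libraries, and their part in these results was not tested.

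Which of the 9 were called turned on single libraries, on scaling and on the filter on low counts. Rad23b and Ccne2 remained called in each fit that left out an injury library. In those fits 3659 to 3768 of the 15529 to 15728 features tested were called higher. Against a lone control, Rad23b was at 1.504 without control 2 and 2.62 without control 1. Ccne2 was at 1.38 without control 1 and 1.43 without control 2. Orc3 lost its call without injury 1, 2 or 3, with log2 fold changes of 0.67 to 0.80 and edgeR adjusted p of 0.0622 to 0.131. On library totals alone, which moved the median of all features by -0.52, Ccne2 (0.77, edgeR adjusted p = 0.0971) and Orc3 (0.22, 0.452) lost theirs and Xpa was called lower (-0.79, 0.0318). That setting called 3348 of 15320 features higher and 6524 lower. With RLE scaling Smc2 (1.48, edgeR adjusted p = 0.0336) and Fancg (1.22, 0.0460) gained a call, where 4779 of 15320 features were called higher. Without the filter Smc2 (1.46, edgeR adjusted p = 0.000238), Fancg (1.20, 0.0101) and Nbn (0.87, 0.0342) gained one and Orc3 lost its own (0.80, 0.0531). There 5682 of 34153 features were called higher.

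Smc2 was 1.36 higher on the log2 scale with an edgeR adjusted p of 0.0536, and was at 0.92 without control 1 and 2.56 without control 2. Fancg (1.11, edgeR adjusted p = 0.0775) was at 0.74 without control 1 and 2.13 without control 2, and Nbn (0.81, 0.0576) at 1.49 and 0.43. Xpa, at -0.31 (edgeR adjusted p = 0.291), was at -0.47 without control 2 and 0.063 without control 1. Rad54b, at -0.73 (edgeR adjusted p = 0.452), changed sign: it was at -1.36 against control 2 alone and 1.57 against control 1 alone. In the fits without control 1 or 2 the lone control was again assumed to vary like the injury libraries, so only effect sizes are given.

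**Figure D3:**
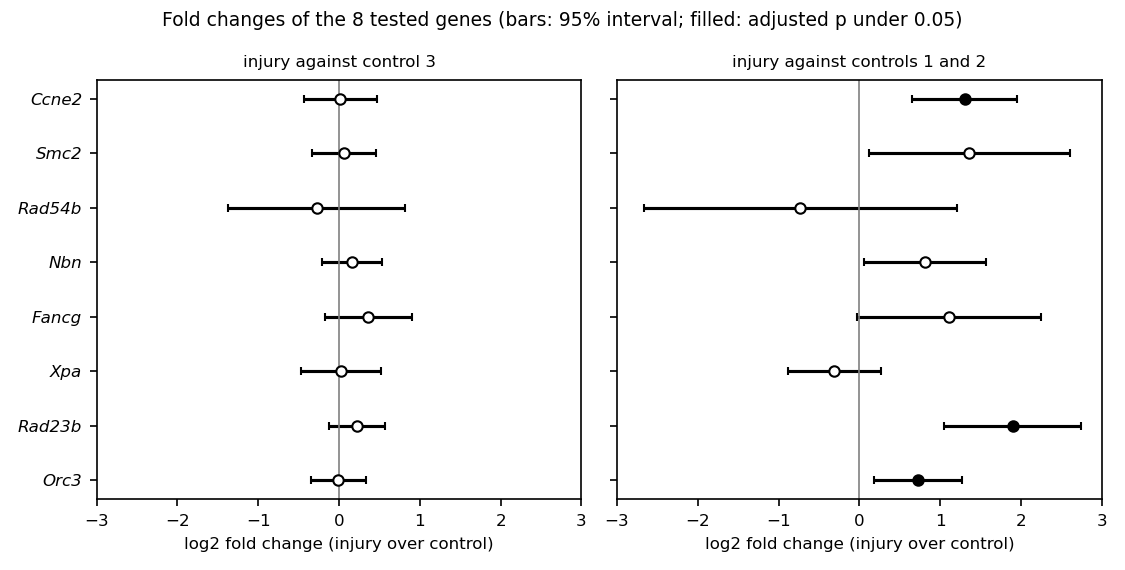
Log2 fold change of injury over control 3 (left) and over controls 1 and 2 (right) for the 8 tested genes, with 95% intervals as bars and filled points where edgeR's adjusted p was under 0.05. Every interval on the left includes 0, and on the right Ccne2 (1.30), Rad23b (1.90) and Orc3 (0.73) are filled.

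With all 3 controls together, edgeR called 0 of the 8 genes and 0% of the 12646 features tested, and 0 of the 8 had an unadjusted p under 0.05, against 3241 features (25.6%). DESeq2 called 0 of 9, and 6.29% of 17384 features. The log2 fold changes ran from -0.84 for Rad54b (SE 0.80, edgeR adjusted p = 0.476) to 0.95 for Rad23b (SE 0.58, adjusted p = 0.316). Ccne2 (0.56), Smc2 (0.61), Fancg (0.61), Nbn (0.35) and Orc3 (0.23) were above 0 and Xpa (-0.46) below. Control and injury ranges did not overlap for Xpa and Rad23b, 2 of the 8, against 39.2% of all features. The same injury libraries enter all 3 comparisons, so their values are not independent of each other.

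Controls 1 and 2 also differed from each other, most in Melk, Rad54b, Smc2 and Fancg. Control 2 over control 1 was 28.8-fold for Melk (exact 95% interval 4.78 to 1177, with 1 count in control 1), 13.2-fold for Rad54b (5.83 to 37.2), 5.30-fold for Smc2 (4.04 to 7.05) and 4.47-fold for Fancg (2.99 to 6.88). It was 1.76-fold for Ccne2 (1.30 to 2.40), 1.43-fold for Orc3 and 1.17-fold for Xpa, and below 1 for Nbn (0.815) and Rad23b (0.781). These intervals cover counting error between 2 libraries of 1 group, not a condition. Of the 8 tested genes 3 were at least 2-fold higher in control 2, Smc2, Rad54b and Fancg, a share near the 35.7% of all features. In Melk and Rad54b control 2 also stood 3.07-fold and 3.81-fold above the next highest library, while in Smc2 and Fancg it was level with the injury libraries. The leukocyte sum was 427 CPM in control 2 and 207 in control 1, with Cd72 at 123 and 40.3 CPM, and its part in these ratios was not tested.

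**Figure D4:**
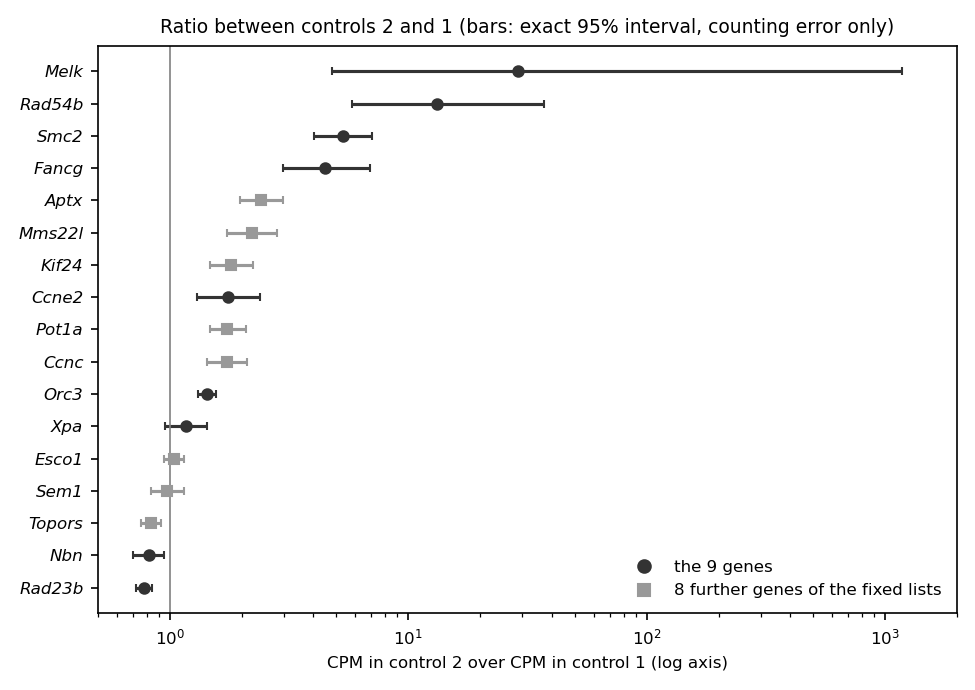
Ratio of CPM in control 2 to CPM in control 1 (log axis) for the 9 genes (black circles) and 8 further genes of the pathway lists (grey squares), with exact 95% intervals for counting error. Melk, Rad54b, Smc2 and Fancg have the 4 highest ratios of the 17 genes, and Nbn, Rad23b, Sem1 and Topors are below 1.

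In 7 pathway lists, 110 other cell cycle and repair genes were sought. Only 8 of them had features on their own exons: Ccnc, Kif24, Esco1, Mms22l, Sem1, Topors, Pot1a and Aptx. Another 45 were read from features that overlie part of their exons, often a small part, so that 53 had any value. Most of these features carry the name of another gene in the files. The reading takes the counts as placed on GRCm38, and the build behind them is not given. Against control 3, 0 of 43 tested list genes were called higher and 0 of 43 lower by edgeR, where 0% and 0.549% of all 5100 genes read in this way were. Before adjustment 1 of the 43 had a p under 0.05, against 817 of the 5100. Against controls 1 and 2, 7 of 48 (14.6%) were higher and 13 of 48 (27.1%) lower, beside 28.1% and 31.7% of 5376 genes.

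By list, the counts against controls 1 and 2 were 2 higher and 1 lower of 5 for G1/S and cyclins, 0 and 2 of 6 for proliferation and mitosis, 0 and 1 of 4 for origin licensing, and 0 and 4 of 7 for condensin and cohesin. In repair they were 2 and 1 of 10 for double-strand breaks, 0 and 3 of 5 for Fanconi anaemia, and 3 and 1 of 11 for nucleotide excision and single-strand break repair. Smc4, the partner of Smc2 in condensin, was among the lower genes (-1.15, edgeR adjusted p = 0.0103) where Smc2 itself was at 1.36. The feature read for Smc4 is named Gm37558 in the files and had 19.7% of its bases on Smc4. Xpc, the partner of Rad23b, was also lower (-1.18, edgeR adjusted p = 0.0126). Its features, named Lsm3 and Gm45216, had 31.9% of their bases on the gene. The feature read for Cetn2, the other partner of XPC, was higher (3.79, edgeR adjusted p = 0.00145). It is named L1cam in the files and had 2.83% of its bases on Cetn2. Its level was 9.24 and 5.86 CPM in controls 1 and 2, 111 in control 3 and 89.8 to 124 after injury. Whether it reads Cetn2 was not tested.

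Of the 8 list genes on their own exons, 6 were called by edgeR against controls 1 and 2. In that comparison 28.1% of all 5376 genes read by overlying feature were called higher and 31.7% lower. Ccnc, the cyclin of the Mediator kinase module, was at 44.4 and 77.0 CPM in controls 1 and 2, 204 in control 3 and 187, 227 and 219.6 after injury (1.85 against controls 1 and 2, edgeR adjusted p = 0.00175). Aptx, which repairs stalled ligation ends, was at 34.4 and 83.1 CPM, 148 in control 3 and 137, 150.3 and 163 after injury (1.44, edgeR adjusted p = 0.00796). Sem1, a small partner of BRCA2 and of the proteasome, had 82.6 and 80.6 CPM against 158 in control 3 and 183 to 189.6 after injury (1.16, edgeR adjusted p = 0.0109), and Pot1a, which caps telomeres, 53.6 and 93.6 against 128 and 110.5 to 134 (0.77, 0.0246).

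In the other direction, Kif24, a centriolar kinesin, measured 37.0 CPM in control 1, 66.8 in control 2, 19.5 in control 3 and 18.4 to 20.6 after injury (-1.37, edgeR adjusted p = 0.00463). Mms22l, which acts at stalled replication forks, stood at 26.4 and 58.4 CPM there, 18.0 in control 3 and 17.6 to 21.4 after injury (-1.09, edgeR adjusted p = 0.0207). Esco1, a cohesin acetyltransferase, and Topors, a ubiquitin and SUMO ligase, were not called (0.060 and -0.41), although Topors at 246 and 205 CPM in controls 1 and 2 was above all other libraries (170.2 to 185 CPM). None of these 8 was called against control 3, with log2 fold changes of -0.020 to 0.29.

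**Figure D5:**
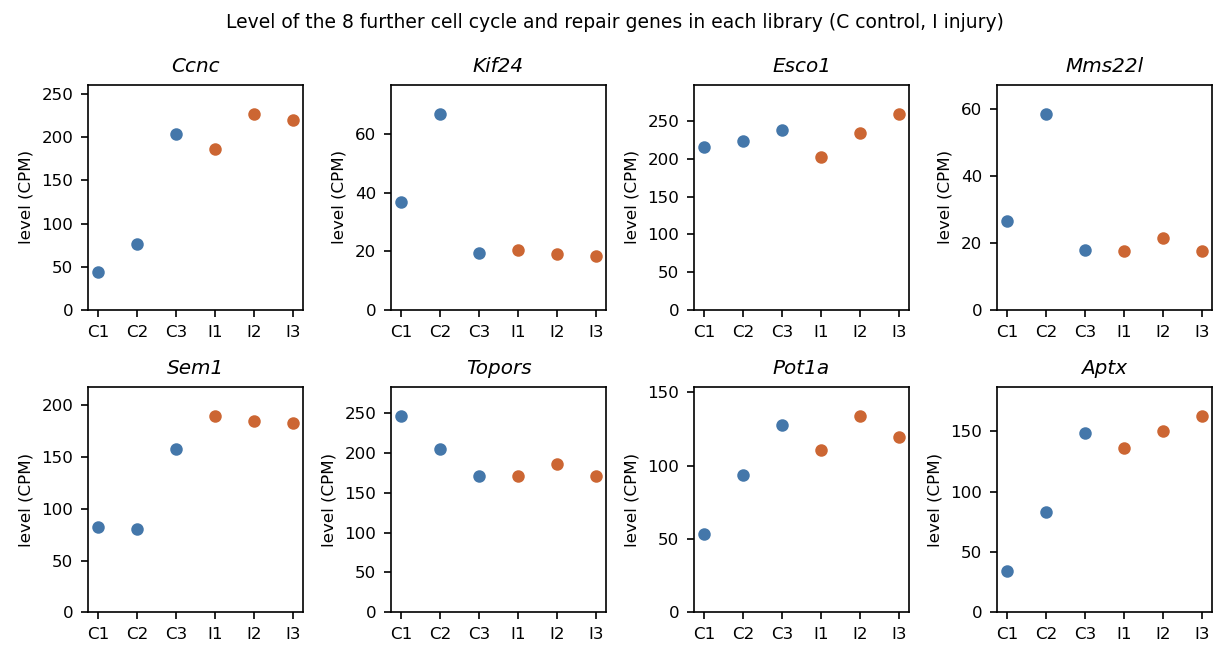
Level in CPM (vertical axis, linear and starting at 0) of the 8 list genes whose features lie on their own exons, in controls 1 to 3 (C, blue) and injury 1 to 3 (I, orange), 1 point per library. Control 3 sits near the injury libraries in each panel, Ccnc, Sem1, Pot1a and Aptx are lower in controls 1 and 2, and Kif24 and Mms22l are higher there.

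For 7 of the genes the gene with the most similar pattern was taken from 453 tested genes on their own exons, by Pearson's r of log2 CPM over the 6 libraries. These were Pm20d2 for Ccne2 (r = 0.985), Zfp800 for Orc3 (0.977), Trpc6 for Smc2 (0.985) and for Fancg (0.963), Ecpas for Nbn (0.992), Spaar for Rad54b (0.983) and Cul2 for Rad23b (0.999). The 6 points share library and depth, and controls 1 and 2 stand apart from the rest, so r is a description. The number of genes with r above 0.9 was 177 for Ccne2 and 161 for Rad23b, but 7 for Rad54b. Spaar, like Rad54b, was highest in control 2 (22.4 CPM against 1.28 in control 1 and 2.81 to 5.45 elsewhere).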

How the data were processed

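Gene counts of 6 RNA sequencing libraries were used, grouped by the sample group label. Per the file headers, the deposited counts came from featureCounts 2.0.1, which took pairs only if both ends mapped, summed exons by gene name and ignored strand, multi-mapping reads and reads on more than 1 feature. A gene and its antisense partner thus cannot be told apart, and genes with near copies lose reads. The submitters' processing notes name Bowtie 0.12.2, mm8 and mm9. The aligner and build behind the counts are not given in the sources used here. File exons were set against GENCODE M21 (GRCm38) with bedtools 2.31.1, and no coordinate was converted.

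CPM is the count over the library's total, times 1e+06. Tests used edgeR 4.0.16 (R 4.3.3) on all features: default filterByExpr, TMM scaling, the quasi-likelihood F test, Benjamini-Hochberg adjustment over all features tested, calls at 0.05. The pipeline was also run on simulated counts with a fixed spread and, outside the changed features, equal means over the libraries. The real controls differ from this, so the run gives no assurance for these data. Totals of 2385703 to 3921627 counts limit low genes, and Poisson and ratio intervals (SciPy 1.17.1) cover counting error only. Alternatives were RLE scaling, library totals alone, no low count filter, DESeq2 1.42.0, a replicate block and leaving out each library. Reading list genes by overlying feature (at least 100 shared bases, 1 gene holding at least 90% of them), the 2-fold ratio between controls and levels over unshared exonic bases were added after seeing the data. The members, pathway lists and cell type markers were chosen with earlier results of these data known. Named genes are the 9 members, list genes on their own exons, up to 4 others per list read from overlying features in list order, and for each member tested the most similar such gene over the 6 libraries (log2 CPM, prior count 2). The most similar gene of Xpa is not reported here. Which of those others to print was chosen after their values were seen.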

Additional observations from a re-analysis of the deposited data

How the results depend on the processing

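Over all features and all 6 libraries, 0 were called by edgeR, 1094 by DESeq2 (7 higher, 1087 lower) and 0 to 10231 when each library was left out, the highest without control 3. Against control 3 the 939 calls (146 higher, 793 lower) became 469 with DESeq2 (455 higher, 14 lower) and 757 to 1995 when each injury library was left out, the highest without injury 1. RLE scaling gave 269 higher and 773 lower, and library totals alone 56 and 874. Against controls 1 and 2, library totals alone gave 3348 higher and 6524 lower in place of 4621 and 5610. With the replicate block in the fit over all 6 libraries, 0 features were called. Deviations from the group means of log2 CPM correlated at 0.065, -0.138 and 0.059 between same-numbered libraries. Because controls 1 and 2 are so unlike control 3, these values can neither show nor exclude pairing. With 1 or 2 controls no block was fitted.

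Of the 9 genes, log2 fold changes that changed sign were mostly near 0. Against control 3 these were Ccne2 (-0.10 on library totals, -0.052 to 0.15 when each injury library was left out), Smc2 (-0.060 and -0.031 to 0.19), Xpa (-0.097 on library totals) and Orc3 (0.033 with RLE, 0.12 without a filter, 0.11 with DESeq2, -0.024 to 0.066 when libraries were left out). Leaving out each library gave Rad54b -1.30 to 0.31 against all controls and -1.36 to 1.57 against controls 1 and 2, and Xpa -0.47 to 0.063 against controls 1 and 2. The cause was not tested. Rad23b was called higher against controls 1 and 2 in every alternative that kept both controls. Those alternatives called 3348 to 5682 features higher, of 15320 to 34153 tested. Depth limits Melk (1 to 29 counts) and Rad54b (6 to 80 counts).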

Other observations

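Of the proliferation and mitosis genes, the first 4 in the list with overlying features were Bub1b, a spindle checkpoint kinase, the kinetochore proteins Cenpe and Cenpf, and Kif11, the spindle motor. Cenpe was at 4.88 CPM in control 1, 27.3 in control 2, 6.88 in control 3 and 5.16 to 6.71 after injury. Kif11 was at 2.57, 19.4 and 6.88 CPM in controls 1, 2 and 3 and 4.82 to 5.87 after injury. Cenpf had 1, 44 and 2 counts in the controls and 16, 6 and 4 after injury. Bub1b was at 12.1, 23.5 and 4.59 CPM in the controls and 5.03 to 6.67 after injury. All 4 were highest in control 2, as Melk and Rad54b were, but the share of all genes highest there was not counted. Their features had only 8.70 to 16.4% of their bases on the gene. In the files these are named Disp2 for Bub1b, Manba for Cenpe, and Smyd2 and Gm38245 for Cenpf. Those for Kif11 are Kif11, Gm46649 and Gm38345. Over all 48 tested list genes, 19 (39.6%) were at least 2-fold higher in control 2 than in control 1, beside 39.0% of all 5376 genes read in this way. Of the double-strand break list, the first 4 read in this way were Mre11a, Rad50, Atm and Brca1, with control 2 over control 1 at 2.07, 2.84, 4.73 and 2.15, from features with 4.45 to 28.2% of their bases on the gene. In the files these features are named Izumo1r for Mre11a, Irf1 for Rad50, Npat and Acat1 for Atm, and Rdm1 for Brca1. Control 2 was the highest library for Mre11a, Rad50 and Atm, and injury 3 for Brca1 (8.80 CPM against 6.63 in control 2).

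Cdkn1a, the p21 inhibitor of cyclin-dependent kinases, was read from a feature named Pnpla1 in the files, with 15.6% of its bases on Cdkn1a. This feature was at 338 CPM in control 1 alone and at 30.2 to 43.2 CPM in the other 5 libraries. Whether it reads Cdkn1a was not tested.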
